A study of Sus scrofa with 12 samples.

Results

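The heat shock proteins of the cytosol and the mitochondria were followed in pig liver through 10 genes: HSP90AA1, HSP90AB1, HSPA8, HSPH1, HSPD1, HSPE1, HSPB1, DNAJB1, FKBP4 and PTGES3. Every probe set whose only annotated symbol was one of these genes was taken, which gave 18 of the 23999 probe sets of the array that are not controls, and 10 of 5810 genes tested. HSP90AA1 had 5 probe sets, HSPA8 had 4, PTGES3 had 2 and each of the other 7 genes had 1. All 18 were among the 15999 probe sets tested after the dimmest were left out, so no member was lost.

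The livers of 12 adult German Landrace pigs gave 1 Affymetrix porcine array each. The labels give each animal a low or high stress response and a low or high aggressiveness, and 3 animals, 1 female and 2 males, carry each of the 4 combinations. No treatment is named in any group, and how the pigs were scored is not given in the sources used here. The name of an animal gives its stress response first, then its aggressiveness, then its number within the group: high-low 3 has a high stress response and low aggressiveness.

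Heat shock proteins are chaperones: they bind proteins that are unfolded or not yet folded, keep them from clumping and help them reach their working shape. HSP70 proteins work in cycles of ATP use set going by J proteins and reset by exchange factors. HSP90 proteins take over later clients, steroid hormone receptors among them, with the help of cochaperones, and the chaperonin of the mitochondrial matrix encloses a client in a chamber. Most of these genes are read at a steady level in unstressed cells and are raised by the transcription factor HSF1 under heat or protein damage, whereas the chaperones of the endoplasmic reticulum (ER) answer to a separate pathway, the unfolded protein response.

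Signals are the deposited linear intensities, and tests were made on log2(signal + 16) with limma, in a model of stress response, aggressiveness and sex. Errors of signals are standard deviations between animals (SD), and errors of log2 fold changes are standard errors (SE). Signals of different probe sets are not on 1 scale, so levels are compared only between animals for the same probe set. The median signal of an array was between 93.3 and 117.4, any 2 arrays correlated at 0.94 to 0.97, and the arrays of high-low 3 and high-high 3 stood apart with the lowest median correlations, 0.957 and 0.953. Of 7 hepatocyte markers 6 were measured, and their summed signal was 180932 to 261862 in the 12 animals. RNA came from whole liver, in which fewer cells of a type and less RNA per cell cannot be told apart.

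For none of the 10 genes did a difference between high and low stress response pass a test. Of their 18 probe sets 0 passed a limma adjusted p under 0.05 and 0 an unadjusted p under 0.05, where 0% and 8.16% of all tested probe sets did. The smallest unadjusted p of the 18 was 0.183 and the smallest adjusted p was 0.746. Log2 fold changes of the genes, high against low, lay between -0.16 and 0.14 with a median of 0.05, beside 0.03 over all tested probe sets. With each gene read by its only or brightest probe set, the 95% intervals of all 10 lay between -0.40 and 0.42. That is between a fold of 0.757 and a fold of 1.34, and some other probe sets of HSP90AA1 and HSPA8 had wider intervals. A value above 0 was seen for 9 of the 10 genes, beside 55.7% of all tested probe sets. The count was 8 of 10 after quantile normalization, 7 of 10 with males only and 4 of 10 after median centring of the arrays. The share of all tested probe sets under these settings is not given here.

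**Figure D1:**
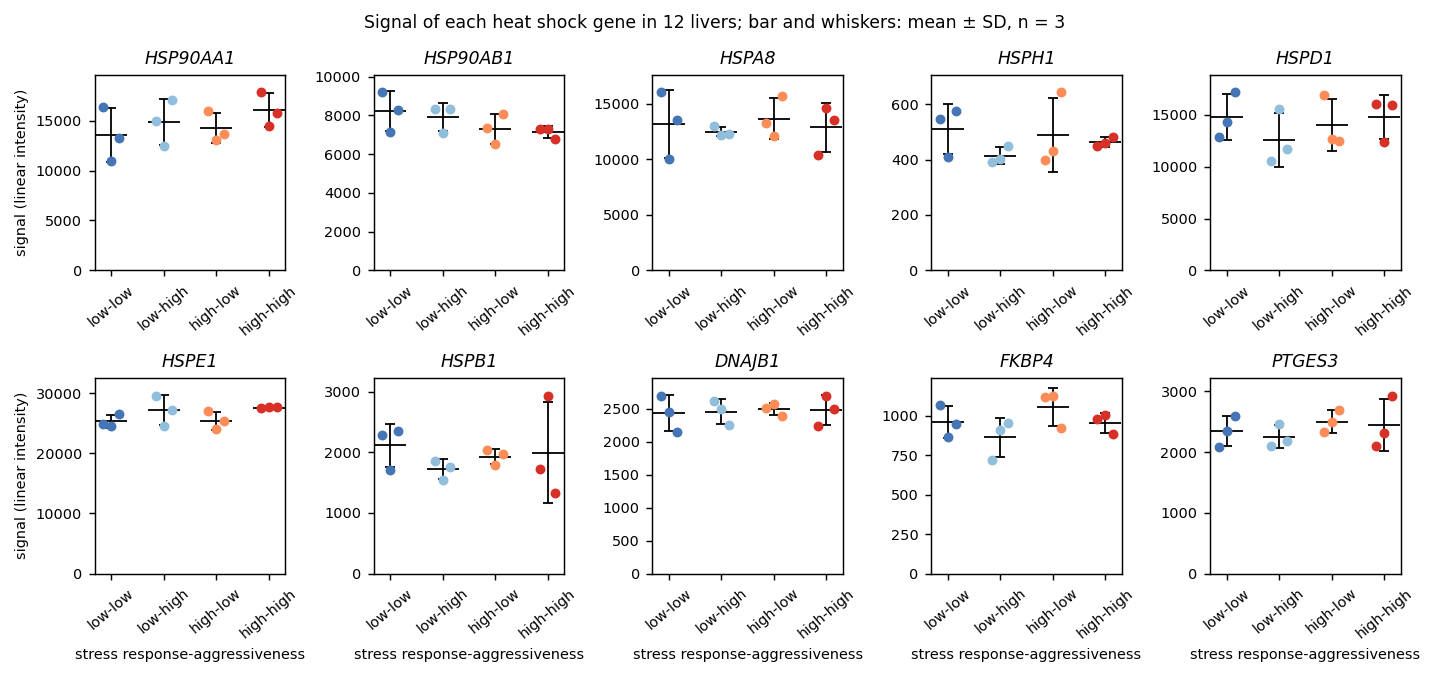
Signal (linear intensity, axis from 0) of the probe set that represents each gene in every animal, in 4 groups of 3 named by stress response and then aggressiveness; the bar and whiskers give the mean ± SD. The groups overlap for most genes, HSPE1 and DNAJB1 lie within narrow bands, and HSPH1 and HSPB1 each have 1 animal well above its group.

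HSP90 in the cytosol is made from a pair of genes, HSP90AA1, the more inducible, and HSP90AB1, the more constant. The HSP90AB1 signals were 9194, 7152 and 8300.1 in the low-low group and 8347, 7101 and 8322 in the low-high group. In the high-low group they were 7360.3, 6499 and 8057, and in the high-high group 7302, 7325 and 6774. The lowest 2 animals thus carried a high stress response, but the 6 with a high response (6499 to 8057, median 7314) overlapped the 6 with a low one (7101 to 9194, median 8311). HSP90AB1 had the most negative value of the 10 genes for stress response, a log2 fold change of -0.16 ± 0.11 (limma adjusted p = 0.746).

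HSP90AA1, read by its brightest probe set, ran from 13037 to 17835 with a median of 15138 at high stress response, and from 10956 to 17092 with a median of 14114 at low. The log2 fold change was 0.10 ± 0.12, with a 95% interval of -0.16 to 0.36. The ranges overlap over most of their length. FKBP4, the immunophilin that joins HSP90 on steroid receptors, had the highest value for stress response, 0.14 ± 0.12, with signals of 883 to 1127 against 720.4 to 1069. PTGES3, known as p23, which steadies the closed form of HSP90, was at 2097 to 2931 against 2090.1 to 2589, a log2 fold change of 0.10 ± 0.12.

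HSPA8 is the constant HSP70 of the cytosol, DNAJB1 a J protein that starts its cycle, and HSPH1 an HSP110 exchange factor that resets it. HSPA8 signals ran from 10373 to 15648 at high stress response (median 13387) and from 9977 to 16019 at low (median 12635.5), a log2 fold change of 0.05 ± 0.14. DNAJB1 was at 2237 to 2702 against 2155 to 2693, a log2 fold change of 0.03 ± 0.11. The 3 parts of this cycle thus had values near 0 for stress response.

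HSPH1 signals were 547, 409 and 575 in the low-low group and 391, 404 and 449.9 in the low-high group. They were 397, 430.4 and 643 in the high-low group and 449.9, 458 and 483 in the high-high group. The 3 highest animals, high-low 3, low-low 3 and low-low 1, all had low aggressiveness, and the other 3 of that level were among the lowest 5. The log2 fold change was 0.04 ± 0.15 for stress response and -0.16 ± 0.15 for aggressiveness (limma adjusted p = 0.969 and 0.9999).

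HSPD1 and HSPE1 are the mitochondrial chaperonin and its lid, HSP60 and HSP10, and lie next to each other in the pig gene table with 0 genes between them. HSPD1 signals ran from 12395 to 16934 at high stress response (median 14347) and from 10519 to 17184 at low (median 13601), a log2 fold change of 0.08 ± 0.15. HSPE1 was at 23970.4 to 27661 (median 27239.6) against 24559.8 to 29612.5 (median 25692), a log2 fold change of 0.02 ± 0.10. HSPB1, the small heat shock protein HSP27, which holds unfolded proteins without using ATP, was at 1329.6 to 2935 against 1538 to 2344, a log2 fold change of 0.01 ± 0.18. All 3 genes overlapped between the levels of stress response.

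**Figure D2:**
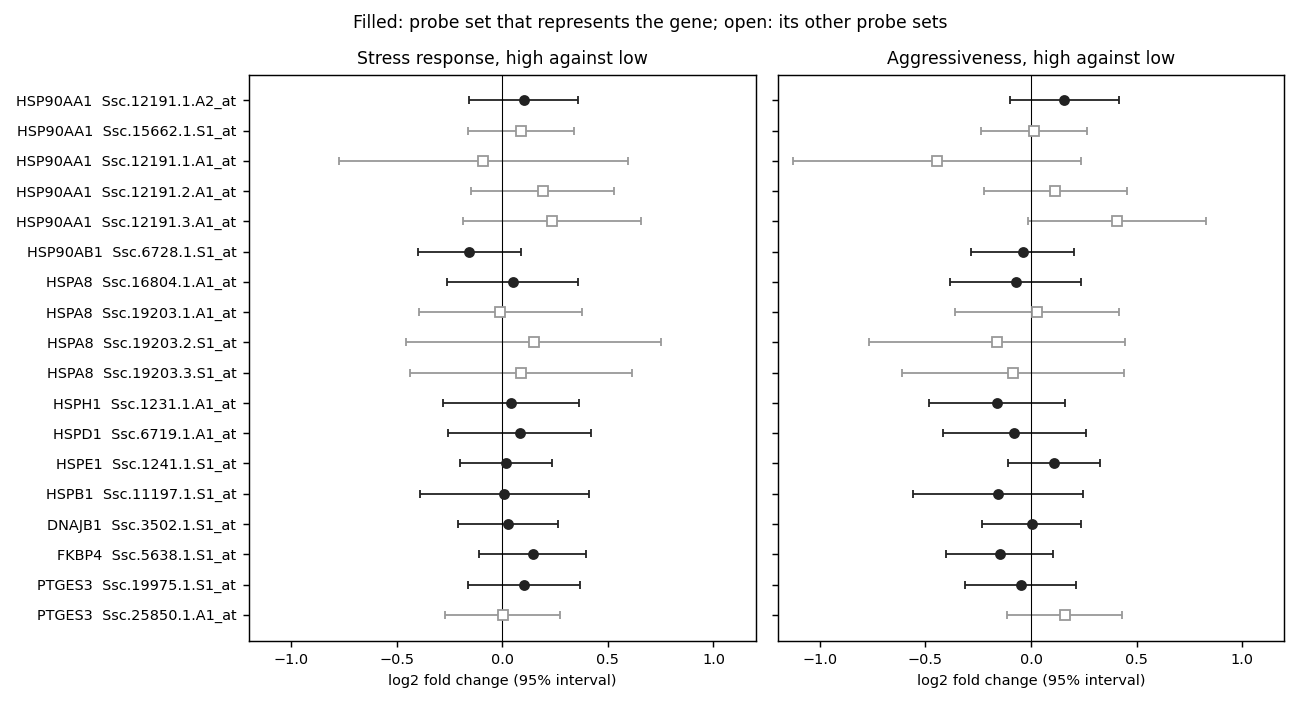
Log2 fold change (x axis) with its 95% interval from limma for each of the 18 probe sets, high against low stress response on the left and high against low aggressiveness on the right; filled circles are the probe sets that represent a gene and open squares the others. Every interval includes 0, and the widest belongs to an HSP90AA1 probe set whose signals ran from 776 to 3433.

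Aggressiveness gave no difference past a threshold either. Of the 18 probe sets 0 passed an adjusted and 0 an unadjusted p under 0.05 in limma, where 0% and 3.22% of all tested probe sets did. Log2 fold changes of the 10 genes lay between -0.16 for HSPH1 and 0.16 for HSP90AA1 with a median of -0.06, beside 0.01 over all tested probe sets. Of the 10 values 3 were above 0, beside 52.0% of all tested probe sets. The 95% intervals of the probe sets that represent the 10 genes lay between -0.56 and 0.42, folds of 0.679 to 1.33. Other probe sets reached further, with folds of 0.458 to 1.18 for the middle and 0.991 to 1.78 for the dimmest HSP90AA1 probe set. The smallest unadjusted p was 0.0567, for the dimmest of the 5 HSP90AA1 probe sets, which read 827 ± 189 in the 6 animals of high and 619 ± 139.6 in the 6 of low aggressiveness (SD).

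HSPE1 had signals of 24842, 24559.8 and 26543 in the low-low group and 29612.5, 24603 and 27268 in the low-high group. In the high-low group they were 26977, 23970.4 and 25361, and in the high-high group 27502, 27661 and 27622. Within the high stress response, all 3 animals with high aggressiveness were above all 3 with low, and within the low stress response the groups overlapped. The aggressiveness difference over all 12 animals was 0.11 ± 0.10 on the log2 scale, with a 95% interval of -0.11 to 0.33, and did not pass (limma adjusted p = 0.9999).

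Groups of 3 animals were also set against each other within 1 level of the other factor. For stress response, 0 of 18 probe sets did not overlap at low aggressiveness, where 10.8% of all tested probe sets did not, and 1 of 18 at high aggressiveness, where 10.8% did not. That 1 was HSPH1, at 449.91 to 483 in the high-high group and 391 to 449.87 in the low-high group, so that the groups came within 1 signal unit of each other. For aggressiveness, 0 of 18 did not overlap at low stress response (7.73% of all tested) and 2 of 18 at high stress response (7.54% of all tested), HSPE1 and the dimmest HSP90AA1 probe set. The HSP90AA1 probe set was at 949 ± 99.0 in the high-high and 615 ± 99.7 in the high-low group (SD, 3 animals each). The log2 fold change was 0.62 ± 0.27, with an unadjusted p of 0.0429 and an adjusted p of 0.999 in limma. It was the only 1 of 18 with an unadjusted p under 0.05 there, where 3.63% of all tested probe sets had one. With all 6 animals a level, 0 of 18 probe sets did not overlap for either factor, where 0.538% of all tested did not for stress response and 0.0875% for aggressiveness.

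Of 3 measures of RNA quality, 1 moved with aggressiveness beside these values. In animals of high aggressiveness the log2 ratio of the 3' to the 5' control probe sets of the elongation factor EF1A was 0.892 ± 0.0878, and in those of low aggressiveness 0.721 ± 0.0257 (SD, 6 animals a level; exact permutation test, two-sided, p = 0.00216, adjusted p = 0.0173 over 8 tests). The EF1A ratios of the 2 levels did not overlap, at 0.757 to 0.993 against 0.685 to 0.748. Over the 12 animals a high EF1A ratio and high aggressiveness thus cannot be told apart. The same ratios of actin and GAPDH did not differ past the threshold (exact permutation test, adjusted p = 0.861 and 0.816). Neither did the mean ratio of the 3 controls (exact permutation test, adjusted p = 0.816). Over the 12 animals the EF1A ratio had a Pearson's r of 0.65 with HSPE1 (permutation p = 0.0249, adjusted p = 0.149 over 18 probe sets) and a Spearman's rho of 0.73 (permutation p = 0.00947, adjusted p = 0.170). With the brightest HSP90AA1 probe set r was 0.67 (permutation p = 0.0184, adjusted p = 0.149) and rho 0.63 (permutation p = 0.0330, adjusted p = 0.198). With the dimmest HSP90AA1 probe set r was 0.69 (permutation p = 0.0134, adjusted p = 0.149) and rho 0.65 (permutation p = 0.0258, adjusted p = 0.198). The 3 probe sets were thus higher where the EF1A ratio was higher, but none of the 18 passed the adjusted threshold. Without the 2 animals farthest from the median EF1A ratio r was 0.68, 0.43 and 0.59 in the same order. Within the 6 animals of high aggressiveness r was 0.38 for HSPE1, 0.94 for the brightest and 0.76 for the dimmest HSP90AA1 probe set, and within the 6 of low aggressiveness 0.18, 0.27 and -0.08. The dimmer PTGES3 probe set had an r of 0.54 (permutation p = 0.0680, adjusted p = 0.306) and a rho of 0.59 (permutation p = 0.0460, adjusted p = 0.207). Its r was 0.39 within high and 0.81 within low aggressiveness. With the mean ratio of the 3 controls r was 0.21 for HSPE1, 0.22 for the brightest and 0.32 for the dimmest HSP90AA1 probe set.

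A difference in the stress response effect between the levels of aggressiveness did not pass in any member. Of the 18 probe sets 0 passed an adjusted and 0 an unadjusted p under 0.05 for the interaction, where 0% and 3.87% of all tested probe sets did. The largest interaction of the 10 genes was that of HSPD1, 0.32 ± 0.31 on the log2 scale with a 95% interval of -0.36 to 1.01. Its signals were 12886, 14316 and 17184 in the low-low group, 10519, 15546 and 11749.6 in the low-high group, 16934, 12688 and 12519 in the high-low group, and 16024, 12395 and 16007 in the high-high group. All 4 groups overlapped. Of the 10 interaction values 8 were above 0, beside 49.4% of all tested probe sets, with a median of 0.02. Their intervals are wide: an interaction of 0.5 would lie within that of each of the 10 genes except HSPE1 and DNAJB1.

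Differences between the group means were of the size of the spread within groups. DNAJB1 had the smallest span from its lowest to its highest group mean, 0.04 on the log2 scale beside a pooled SD within groups of 0.12. FKBP4 had the widest, 0.29 beside 0.16, with means of 1056 ± 119 in the high-low, 960.2 ± 102 in the low-low, 955 ± 63.2 in the high-high and 862 ± 124 in the low-high group. Neighbours in that order overlapped, as did the high-low and low-high groups at its ends. For HSPA8, HSPB1, DNAJB1 and PTGES3 the span was smaller than the pooled SD, and for HSPD1 the 2 were equal at 0.24.

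Read by the probe sets that represent them, the 10 genes varied less from animal to animal than the median of all tested probe sets. The SD of the log2 signal over the 12 animals was 0.09 for HSPE1 and 0.11 for DNAJB1, and 0.531% and 1.21% of all tested probe sets had a smaller one. It was 0.15 for HSP90AB1, 0.15 for PTGES3, 0.17 for FKBP4, 0.21 for HSP90AA1, 0.21 for HSPA8, 0.22 for HSPH1, 0.23 for HSPD1 and 0.30 for HSPB1. The median over all tested probe sets was 0.32, above the SD of all 10 genes, and over the 3192 tested probe sets with a mean signal above 1000 it was 0.216. Against these brighter probe sets 7 of the 10 genes, HSPE1, DNAJB1, HSP90AB1, PTGES3, FKBP4, HSP90AA1 and HSPA8, were below the median and 3 were above it. The probe sets of HSPH1 and FKBP4 had mean signals under 1000. Other probe sets of the same genes varied more in part. From bright to dim the SD was 0.14, 0.59, 0.25 and 0.39 for the others of HSP90AA1. It was 0.30, 0.48 and 0.40 for the dim ones of HSPA8 and 0.22 for the dimmer one of PTGES3.

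HSPB1 was the most variable by the probe sets that represent the genes. Its signals were 2283, 1709.9 and 2344 in the low-low group, 1863, 1538 and 1756 in the low-high group, 2030.5, 1787 and 1966 in the high-low group, and 1722, 2935 and 1329.6 in the high-high group. The highest and the lowest animal of all 12 thus belonged to the same group. The log2 fold change for aggressiveness was -0.16 ± 0.18, and without high-high 2 it was the most negative of the values with 1 animal left out, -0.31.

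No difference between the sexes passed in the members. With 8 males and 4 females, 0 of 18 probe sets had an adjusted p under 0.05 in limma, where 0.0688% of all tested probe sets did. HSP90AA1 had the lowest value of the genes, -0.25 ± 0.13 in males against females (limma unadjusted p = 0.0732, adjusted p = 0.940).

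Different probe sets of 1 gene did not give 1 picture. For aggressiveness the 5 of HSP90AA1 ran from -0.44 ± 0.31 for the middle one in brightness to 0.41 ± 0.19 for the dimmest. The middle one ran from 776 in low-high 1 to 3433 in low-low 3, 4.42 times as high, while the brightest HSP90AA1 probe set varied 1.63 times. PTGES3 gave -0.05 ± 0.12 with 1 probe set and 0.16 ± 0.12 with the other. The brightest of the 3 dim HSPA8 probe sets gave 0.03 ± 0.18, where the bright one gave -0.07 ± 0.14. For stress response the middle HSP90AA1 probe set gave -0.09 ± 0.31 against 0.10 for the brightest, and the same dim HSPA8 probe set -0.01 ± 0.18 against 0.05 for the bright one. The interaction was -0.04 ± 0.30 with the bright HSPA8 probe set and 0.03 ± 0.37, 0.04 ± 0.58 and 0.37 ± 0.49 with the dim ones. The sexes gave 0.11 ± 0.12 with the second brightest HSP90AA1 probe set, against -0.25 for the brightest. For HSPA8 they gave 0.25 ± 0.19 and 0.07 ± 0.25 with 2 of the dim probe sets against -0.13 ± 0.15 for the bright one, and for PTGES3 -0.28 ± 0.13 with the dimmer probe set against 0.01 ± 0.13. The sign thus depended on the probe set, and the 95% interval of each of these values includes 0. Of the 17 pairs of probe sets that share a gene, 0 were correlated past an adjusted p of 0.05 over the 12 animals (permutation test).

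The brightest HSPA8 probe set ran against a dim one of the same gene. With the brightest of the 3 dim ones, at 143 to 312 signal units, Pearson's r was -0.61 (permutation p = 0.0355, adjusted p = 0.121) and Spearman's rho -0.69 (permutation p = 0.0165, adjusted p = 0.140) over 12 animals. Without the 2 animals farthest from the median of the bright probe set r was -0.52. The 3 dim HSPA8 probe sets had an r of 0.65 to 0.75 with each other. Which transcripts each of these probe sets reads, and whether any also reads processed copies of the gene, is not given in the sources used here.

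**Figure D3:**
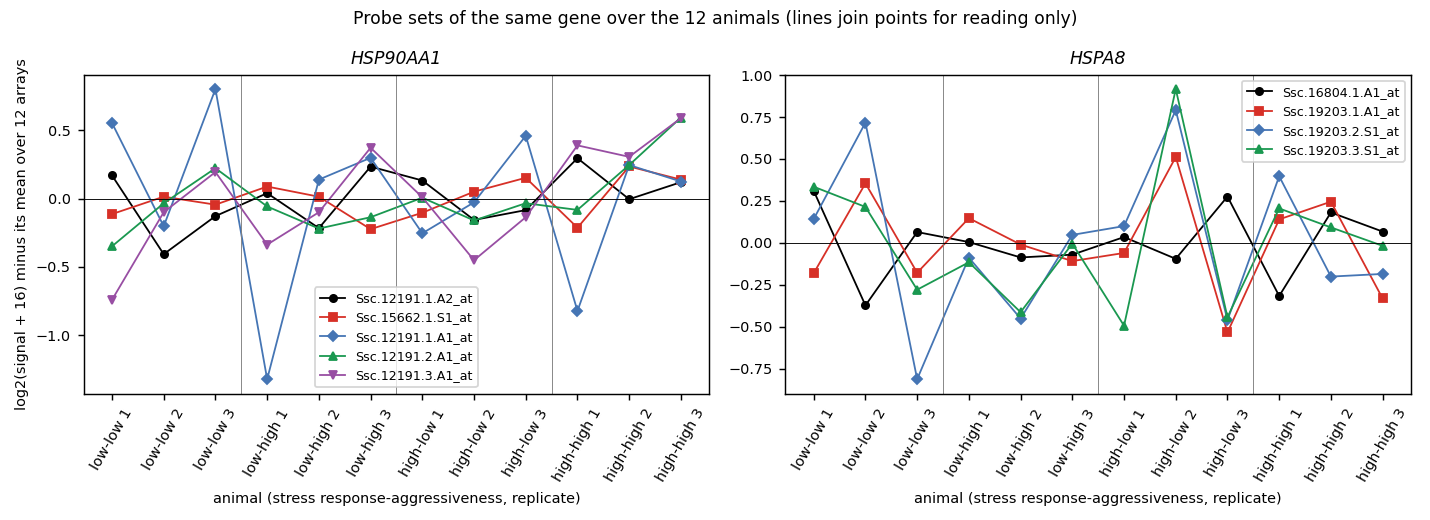
Log2(signal + 16) minus its mean over the 12 arrays (y axis) for the 5 probe sets of HSP90AA1 and the 4 of HSPA8 in every animal (x axis); lines only join the points of 1 probe set. The HSP90AA1 probe set drawn with blue diamonds falls far below its mean in low-high 1, and the dim HSPA8 probe sets are highest in high-low 2, where the brightest is not.

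By their signals as they stood, the members hardly moved together from animal to animal. Over the 45 pairs of genes the median Pearson's r was 0.07, with a range of -0.46 to 0.63, beside a median of 0.01 over all pairs of 5810 named genes. An r of at least 0.5 was seen in 2 of the 45 pairs, 4.44%, and in 7.34% of all gene pairs. None of the 45 passed an adjusted p of 0.05 in a permutation test, and 2 had an unadjusted p under 0.05. On residuals from the model of stress response, aggressiveness and sex, r ran wider. It was lowest for HSP90AA1 with PTGES3, -0.64, and highest for HSP90AA1 with HSP90AB1, 0.76. Residual r of all gene pairs is not given here, and residual r was not tested.

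HSPA8 and HSPH1, the HSP70 and its exchange factor, were the closest pair. Pearson's r was 0.63 (permutation p = 0.0301, adjusted p = 0.784 over 45 pairs) and Spearman's rho 0.62 (permutation p = 0.0345, adjusted p = 0.496), and r was 0.72 without the 2 animals farthest from the median of HSPA8. It was 0.63 on residuals, and 0.50 without the arrays of high-low 3 and high-high 3, which stood apart. Without these arrays HSPA8 and HSPB1 had a higher r, 0.73. HSPA8 and HSPH1 both had their 3 highest animals among high-low 3, low-low 1, low-low 3 and high-high 2.

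HSP90AA1 and HSPE1 followed with a Pearson's r of 0.58 (permutation p = 0.0462, adjusted p = 0.784) and a Spearman's rho of 0.57 (permutation p = 0.0551, adjusted p = 0.496). Without the 2 animals farthest from the median r was 0.48, and after quantile normalization of the arrays it was 0.09. Both are among the probe sets given above with the EF1A ratio, at an r of 0.67 and 0.65. HSPD1 and HSPE1, which are neighbours in the genome and partners in the chaperonin, had an r of -0.16 (permutation p = 0.628, adjusted p = 0.883) and a rho of -0.21 (permutation p = 0.514, adjusted p = 0.826). Without the 2 animals farthest from the median their r was 0.21, and after quantile normalization it was 0.41, so its sign depended on the processing.

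For the 4 members that varied most by the probe sets that represent them, the named genes with the most similar pattern were found by Pearson's r over the 12 animals. They were SLA-DMB (0.84), DAO (0.82) and TCFL5 (0.80) for HSPB1, and PEX13 (0.91), CRK (0.88) and HNRNPH3 (0.88) for HSPD1. KPNA1 (0.89), DDX6 (0.88) and ITSN1 (0.87) were closest to HSPH1, and VWA5A (0.86), NSUN3 (0.84) and CRIM1 (0.80) to HSPA8. These are the highest of all tested named genes outside the members and are given as a description of these 12 arrays.

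Other genes of the chaperone pathways were read from 7 lists with 60 measured genes, and none passed an adjusted p of 0.05 in limma for stress response, aggressiveness or the interaction. Of all tested probe sets 8.16% had an unadjusted p under 0.05 for stress response and 3.87% for the interaction (limma), which any single gene below has to be read against. Values above 0 for stress response were found in 55.7% of all tested probe sets. In the HSP70 system, of J proteins, exchange factors and further HSP70 proteins, 13 of 18 genes had values above 0 and 5 below for stress response, with a median of 0.07. HSPA13, a divergent HSP70 found at ER membranes, was the 1 gene with an unadjusted p under 0.05. It read 639 ± 315 against 337 ± 69.6 signal units (SD), which is 0.80 ± 0.22 on the log2 scale (limma adjusted p = 0.523). The difference was 1.26 ± 0.26 at high and 0.33 ± 0.26 at low aggressiveness, an interaction of 0.93 ± 0.37 (limma adjusted p = 0.999). HSPA4, a relative of HSPH1, had 0.17 ± 0.13 and DNAJA1, a J protein, 0.05 ± 0.13.

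Among HSP90 cochaperones 7 of 9 genes had values above 0, with a median of 0.09. PPID, an immunophilin like FKBP4, had an unadjusted p under 0.05 with a log2 fold change of 0.39 ± 0.15 (limma adjusted p = 0.570). FKBP5, which takes the same place on steroid receptors as FKBP4 and is induced by glucocorticoids, had 0.74 ± 0.42 (limma adjusted p = 0.681). STIP1, which links HSP70 to HSP90, had 0.09 ± 0.14. The 4 measured receptor clients of HSP90, the glucocorticoid receptor NR3C1 with 0.08 ± 0.18 among them, had a median of 0.07 and 0 unadjusted p under 0.05.

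Among mitochondrial chaperones and proteases 6 of 7 genes had values above 0, with a median of 0.18. GRPEL1, the exchange factor of the mitochondrial HSP70, had 0.28 ± 0.12 (unadjusted p under 0.05, limma adjusted p = 0.580), and HSPA9, that HSP70 itself, 0.21 ± 0.10 (limma adjusted p = 0.641). The HSPA9 signals of the 2 levels of stress response did not overlap, at 12392 ± 1054 against 10702 ± 266 (SD), where 0.538% of all tested probe sets did not. Those of the other genes of this list overlapped. The other small heat shock proteins had values below 0 in 5 of 6 genes, with a median of -0.17, and 0 had an unadjusted p under 0.05. In this list HSPB6 had an interaction of -0.80 ± 0.25 (unadjusted p under 0.05, limma adjusted p = 0.999) with 1 probe set and -0.13 ± 0.37 with another.

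The cytosolic chaperonin TRiC and its helper prefoldin had 7 of 11 genes above 0, with a median of 0.01 and 0 unadjusted p under 0.05. The transcription factors HSF1, with 0.08 ± 0.14, and HSF2, with 0.04 ± 0.16, did not pass. In the list of heat shock transcription factors and regulators 5 of 5 genes had values above 0, with a median of 0.19. Its 1 gene with an unadjusted p under 0.05, the elongation factor EEF1A1, had 0.39 ± 0.16 with the probe set that represents it and -0.12 ± 0.11 and -0.20 ± 0.13 with the others. For aggressiveness 0 of the 60 genes had an unadjusted p under 0.05, where 3.22% of all tested probe sets did (limma).

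**Figure D4:**
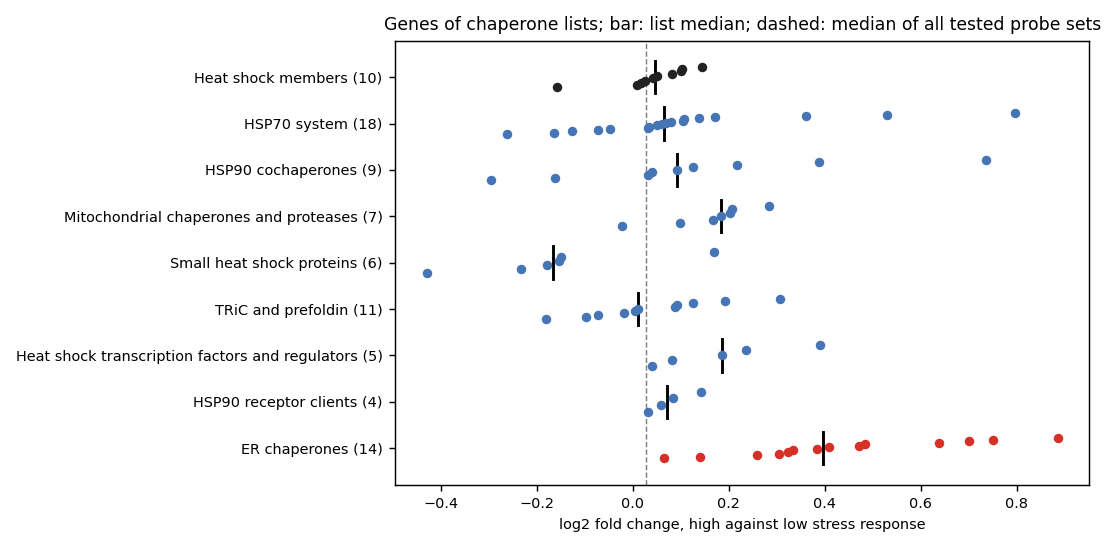
Log2 fold change for high against low stress response (x axis) of every measured gene of the heat shock members, the 7 chaperone lists and the ER chaperones, with the number of genes in brackets; bars mark list medians and the dashed line the median of all tested probe sets. The 10 heat shock genes lie between -0.16 and 0.14 and the 14 ER chaperones between 0.07 and 0.89.

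The ER chaperones were measured on the same arrays, and 14 of 14 had values above 0 for stress response, beside 55.7% of all tested probe sets. Their median was 0.40. An unadjusted p under 0.05 was found for 11 of them and an adjusted one for 0, where 8.16% and 0% of all tested probe sets had one (limma). That these genes stand higher was known from earlier results on the same arrays, so it serves here only as a comparison for their relatives outside the ER. The ratios that follow are therefore given as a description, without p-values.

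Each of 4 ER chaperones was set against its relative of the same protein family outside the ER, as the log2 ratio of both signals within an array. A ratio within an array shows unequal change and not that one of the genes did not change. HSPA5, the HSP70 of the ER, over HSPA8 ran from 0.94 to 1.35 at high stress response (median 1.06) and from 0.57 to 1.02 at low (median 0.73). The levels overlapped in 1 animal with a low response, which reached into the range of the high ones. The means were 1.12 ± 0.17 and 0.76 ± 0.15 (SD, 6 animals a level), a difference of 0.36.

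HSP90B1, the HSP90 of the ER, over HSP90AB1 ran from -0.16 to 0.72 at high (median 0.17) and from -0.46 to -0.11 at low stress response (median -0.17). In 5 of 6 animals with a high response the ratio was above that of every animal with a low one. The means were 0.23 ± 0.30 and -0.25 ± 0.17, a difference of 0.48. Over HSP90AA1, the same ER gene ran from -0.92 to -0.50 against -1.50 to -0.73, with means of -0.83 ± 0.16 and -1.05 ± 0.29, a difference of 0.22.

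HYOU1, the exchange factor of the ER and a relative of HSPH1, had the widest difference. Its log2 ratio over HSPH1 ran from 1.83 to 3.11 at high (median 2.51) and from 1.29 to 2.27 at low stress response (median 1.93), with 5 of 6 high animals above every low one. The means were 2.58 ± 0.48 and 1.87 ± 0.33, a difference of 0.71. The signals of HYOU1 alone did not overlap between the levels, at 2972 ± 777 against 1730 ± 263 (SD).

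DNAJB11, a J protein of the ER, over DNAJB1 ran from -1.18 to -0.51 at high (median -0.95) and from -1.56 to -1.23 at low stress response (median -1.38). All 6 animals with a high response lay above all 6 with a low one. The signals of DNAJB11 alone did not overlap either, at 1307 ± 235 against 931 ± 106 (SD), so the ratio adds little to that separation. Of all tested probe sets 0.538% did not overlap between the levels of stress response. The means were -0.93 ± 0.24 and -1.38 ± 0.10, a difference of 0.45.

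The differences of the ratios were also read within each sex. In the 2 females with a high against the 2 with a low stress response, the differences were 0.54 for HSPA5 over HSPA8, 0.71 for HSP90B1 over HSP90AA1, 0.95 for HSP90B1 over HSP90AB1, 1.25 for HYOU1 over HSPH1 and 0.67 for DNAJB11 over DNAJB1. In the 4 against 4 males they were 0.27, -0.03, 0.25, 0.44 and 0.33 in the same order. For DNAJB11 over DNAJB1 the males did not overlap. Whether the sexes differ was not tested. Of 4 measured macrophage markers CD163 and MARCO had an unadjusted p under 0.05 for stress response, 1 higher and 1 lower, and the summed signal of the 4 was 4968 to 7020.0 at high and 4697 to 6617 at low stress response; their part in the ratios was not tested.

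**Figure D5:**
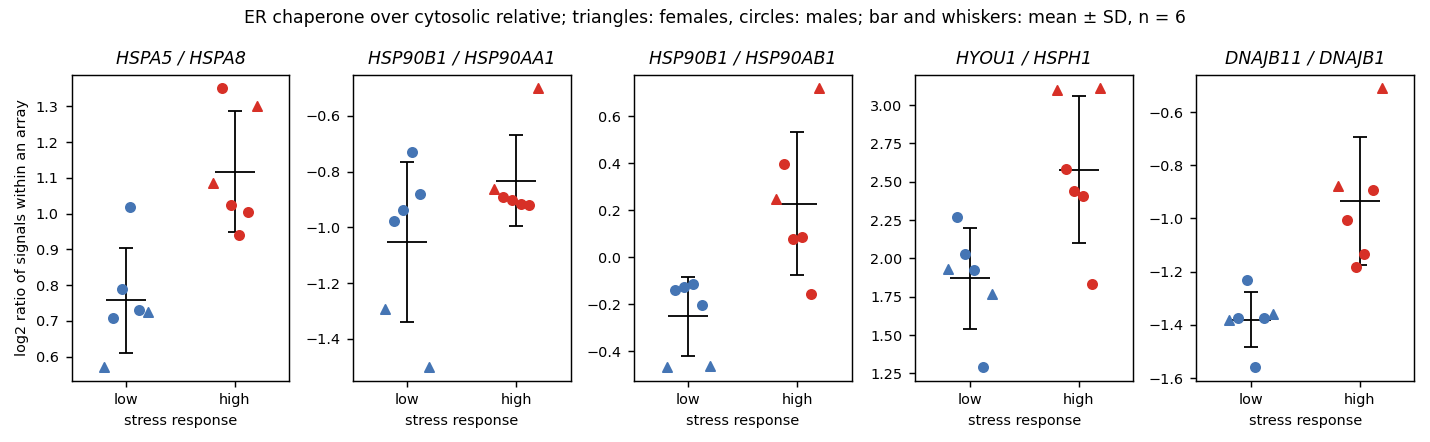
Log2 ratio within each array (y axis) of an ER chaperone over its relative outside the ER, at low and high stress response; triangles are females, circles males, and the bar and whiskers give the mean ± SD of 6 animals. All animals with a high response lie above all with a low one for DNAJB11 over DNAJB1, as they do for DNAJB11 alone. The levels overlap for each of the other ratios.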

How the data were processed

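Signals of the Affymetrix porcine array, a linear intensity per probe set, were used as deposited; the authors made them with GCOS 1.1.1, per the submitters' processing notes. How probes were summarised and arrays scaled is not given in the sources used here, but the mean after trimming 2% was 500.2 on every array, so they had been scaled before deposit. The number of arrays limits the precision.

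After 124 controls, the 33.3% of probe sets with the lowest mean log2 were left out, and 15999 were tested, with symbols from the array's annotation table. The table gave 1 symbol to 10069 of the 23999 probe sets that are not controls, several to 198 and none to 13732, and probe sets with several or none stayed unnamed. A gene was represented by its probe set with the highest mean log2 value. Models were fitted with limma 3.58.1 (R 4.3.3) to log2(signal + 16) with stress response, aggressiveness and sex (8 residual degrees of freedom), and again with the interaction (7), for the interaction and the differences within a level. Fold changes are on this scale, which understates changes of dim genes. P-values were adjusted over all 15999 by the Benjamini-Hochberg method, with a threshold of 0.05. Correlations used 100000 permutations, the test of RNA quality exact permutation over 924 arrangements. Exact permutation tests of the ratios of ER chaperones to their relatives were also run. Their p-values are not given, because the pairs were chosen with earlier results of these data known. The fits were tested on simulated data. No numbers in the labels paired the animals.

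All 10 members were named, with each probe set that differed in sign or by over 0.5 from the one that represents the gene in stress response, aggressiveness, the interaction or sex; list genes were named at an unadjusted p under 0.05, at most 4 per list and comparison, and a few well known partners were added after their values were seen. Of the ER list the 4 relatives are named. Markers of 9 cell types were read. The members, lists, markers and pairs were chosen with earlier results of these data known, and the ratio of each pair came later, after the data. Tried as alternatives were no sex term, males only, other filters, quantile normalization, median centring, constants of 1 and 64, trend and robust variance, array weights, the mean over probe sets, both outlying arrays left out and each animal left out. Matplotlib 3.10.9 (Python 3.11.15) drew the figures.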

Additional observations from a re-analysis of the deposited data

Results flagged for a closer look

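A search for animals far from the rest of their level, by the gap to the nearest animal over the range of the level, covered 72 levels of 6 animals, and 2 met the 95% criterion of Dixon's test. Chance gives about 1 in 20 levels. HSPH1 was at 643.1 in high-low 3, the next of the 6 animals with a high stress response being at 483, a gap ratio of 0.652. The array of high-low 3 is 1 of the 2 that stood apart, and without both the log2 fold change of HSPH1 for stress response was -0.07 instead of 0.04. HSPB1 was at 2935.3 in high-high 2, the next of the 6 animals with high aggressiveness being at 1863, a gap ratio of 0.668.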

How the results depend on the processing

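Over 26 alternative settings the 10 genes gave 520 log2 fold changes for stress response and aggressiveness, and 0 had an adjusted p under 0.05 in limma (the smallest was 0.669). Signs turned in the cases that follow. For stress response this was so with males only (HSPD1 -0.088, HSPE1 -0.0096), quantile normalization (HSPB1 -0.0045), median centring (HSPA8 -0.0025, HSPH1 -0.0089, HSPE1 -0.036, HSPB1 -0.042, DNAJB1 -0.026) and without both outlying arrays (HSPA8 -0.0091, HSPH1 -0.073, PTGES3 -0.0035). For aggressiveness it was so with males only (HSP90AB1 0.0071, HSPB1 0.010 instead of -0.16), median centring (DNAJB1 -0.019), array weights (DNAJB1 -0.011), the mean over probe sets (PTGES3 0.056) and without both outlying arrays (HSP90AB1 0.033, DNAJB1 -0.0061). With 1 animal left out, the ranges that include 0 were -0.031 to 0.11 for HSPA8, -0.042 to 0.13 for HSPH1, -0.015 to 0.048 for HSPE1, -0.15 to 0.12 for HSPB1 and -0.013 to 0.063 for DNAJB1 in stress response, and -0.036 to 0.041 for DNAJB1 in aggressiveness. The count of probe sets with an unadjusted p under 0.05 went from 0 to 1 of 18 for aggressiveness without the sex term, with the lowest 50% left out, with quantile normalization, a constant of 64 or trend and robust variance, and for the interaction with males only; with 1 animal left out both counts were 0 to 1. The ratio of HSPA5 to HSPA8 was 0.34 with the mean over probe sets. With males only the differences were 0.27 for HSPA5 over HSPA8, 0.25 for HSP90B1 over HSP90AB1, 0.44 for HYOU1 over HSPH1 and 0.33 for DNAJB11 over DNAJB1, and -0.026 for HSP90B1 over HSP90AA1. With 1 animal left out that last difference was 0.13 to 0.29. The causes were not tested. With 3 animals per group and 6 per level, the intervals of the probe sets that represent the 10 genes allow folds of 0.757 to 1.34 for stress response. Other probe sets of the same genes allow more, such as 0.585 to 1.51 for the middle HSP90AA1 one and 0.728 to 1.69 for a dim HSPA8 one.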
